A study of Homo sapiens with 10 samples.

Results

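The genes described here encode the matrix metalloproteinases (MMP), the ADAMTS proteases and the tissue inhibitors of metalloproteinases (TIMP), followed in PC3 cells given the LXR agonist GW3965 or its vehicle. They were taken by symbol from the deposited expression table, as every MMP, ADAMTS or TIMP followed by its number. The search returned 47 of 62656 genes, with 24 MMP, 19 ADAMTS and 4 TIMP genes. PC3 is an established human line from a prostate cancer, labelled epithelial, and GW3965 is a synthetic agonist of the liver X receptors (LXRs), the nuclear receptors for oxysterols. After a night of starvation, cells in RPMI-1640 with L-Glu received 1 µM GW3965 or DMSO alone for 24 h, per the series design, and RNA was sequenced from 5 libraries of each. The growth label of the same samples lists FBS in the medium, so whether serum was present during treatment is not settled by the labels. All 10 libraries came from this single line, so that the comparison speaks of PC3 cells alone. Nothing in the labels says that the 5 libraries of a group were separate cultures. The p-values therefore measure the spread between these libraries, which may be technical.

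MMPs are zinc-dependent endopeptidases, mostly secreted as inactive zymogens, that cut collagens and other proteins of the extracellular matrix. Collagenases open fibrillar collagen, gelatinases cut denatured collagen and the collagen of basement membranes, stromelysins have a broad range of matrix substrates, and membrane-type MMPs act at the cell surface. ADAMTS proteases are secreted metalloproteinases with thrombospondin repeats, several of which cleave proteoglycans or trim procollagens, while TIMPs bind the active site of MMPs and block it. In invasive carcinoma, proteolysis around the cell is a classical part of matrix crossing, which is why these genes are followed in work on epithelial-mesenchymal transition. Activity also depends on zymogen cleavage and inhibitor binding, which transcript levels do not measure.

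Start regions were available for 27 of the 47 genes in the RefSeq set used here (GRCh38.p14, from 250 bases before to 50 after the start), in 28 windows because ADAMTS10 had 2. MMP1, MMP2, MMP3, MMP9, MMP12, MMP13, MMP16, MMP17, MMP19, MMP23A, MMP25, MMP28, ADAMTS1, ADAMTS4, ADAMTS5, ADAMTS8, ADAMTS9, ADAMTS15, ADAMTS16 and TIMP2 were not among them. Those of MMP10, MMP14 and TIMP1 are shown because these genes stand for the 3 patterns described next, a metalloproteinase whose level varied widely between libraries, one whose level hardly varied, and an abundant inhibitor. Capitals mark the TATA box, the CCAAT box and the GC box. MMP10 lies at chr11:102780579-102780878 on the minus strand, MMP14 at chr14:22836335-22836634 on the plus strand and TIMP1 at chrX:47582186-47582485 on the plus strand.
MMP10: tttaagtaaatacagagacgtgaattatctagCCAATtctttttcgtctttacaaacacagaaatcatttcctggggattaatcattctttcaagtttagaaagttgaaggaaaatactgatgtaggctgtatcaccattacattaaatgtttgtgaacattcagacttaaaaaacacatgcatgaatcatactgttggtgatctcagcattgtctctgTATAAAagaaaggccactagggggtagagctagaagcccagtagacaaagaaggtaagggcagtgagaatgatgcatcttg
MMP14: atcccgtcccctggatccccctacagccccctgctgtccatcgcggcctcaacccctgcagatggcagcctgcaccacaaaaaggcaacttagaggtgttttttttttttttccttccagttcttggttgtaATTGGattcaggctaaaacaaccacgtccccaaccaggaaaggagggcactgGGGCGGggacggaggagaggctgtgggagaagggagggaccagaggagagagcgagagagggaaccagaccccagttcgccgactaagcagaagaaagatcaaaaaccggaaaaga
TIMP1: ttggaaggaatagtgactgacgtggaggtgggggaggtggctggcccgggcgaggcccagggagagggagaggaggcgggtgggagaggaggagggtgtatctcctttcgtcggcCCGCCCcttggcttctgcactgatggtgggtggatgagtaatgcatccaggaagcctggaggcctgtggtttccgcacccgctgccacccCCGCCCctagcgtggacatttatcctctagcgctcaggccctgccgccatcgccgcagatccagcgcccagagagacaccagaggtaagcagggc

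In the MMP10 window, TATAAA began 31 bases before the start and CCAAT began 218 bases before it. In MMP14, ATTGG began 118 bases and GGGCGG 66 bases before the start. TIMP1 held CCGCCC at 135 and at 45 bases before its start and had neither of the other boxes. Read on both strands, TATAAA was present in 7 of the 28 member windows (25%), against 11.5% of all 35116 promoters. The GC box (GGGCGG or CCGCCC) was in 19 of them, or 67.9%, against 45.0% of all promoters, and CCAAT or ATTGG in 13, or 46.4%, against 34.6%. The AP-1 letters TGAGTCA or TGACTCA occurred in 1 member window, that of MMP7, and in 4.95% of all promoters, with MMP1, MMP3 and MMP13 not searched. The direct repeat that LXR binds with its partner RXR (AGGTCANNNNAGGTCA or TGACCTNNNNTGACCT) was in none of the 28 and in 7 of the 35116, or 0.0199%. These are matches of letters within a short window, and the letters of these motifs do not overlap each other in the 3 windows shown.

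The table held RPKM values (reads per kilobase of gene, scaled to the library). Its values returned to whole reads, with totals of 30610215 to 39384176 reads in DMSO and 30429480 to 41636496 in GW3965. The 7SL RNA took between 12.0% and 23.2% of a library (mean 19.1% in DMSO and 16.4% in GW3965, exact permutation p = 0.31, two-sided, n = 5 each), and its part in the results was not tested beyond a fit that took it as a covariate. The keratins of the epithelial list were abundant, with KRT19 near 140, KRT18 near 49.8 and KRT8 near 36.8 RPKM, while KLK3, a marker of luminal prostate cells, had 0 reads and CDH1, the epithelial cadherin, had 0.249 RPKM in DMSO. The 5 leukocyte markers summed to at most 0.425 RPKM in any library, and the 5 fibroblast markers to between 2.85 and 5.79 RPKM. The treatment itself was visible in LXR target genes. ABCA1, the cholesterol exporter, went from 3.43 ± 1.34 to 16.5 ± 2.37 RPKM (SD, n = 5 each), a log2 fold change of 2.29 with an SE of 0.20 and an adjusted p of 0.00063 in limma. ABCG1, another cholesterol exporter, SREBF1, a regulator of fatty acid synthesis, and MYLIP, which marks lipoprotein receptors for degradation, passed as well, and in all 4 genes the groups did not overlap.

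Against that, no MMP, ADAMTS or TIMP gene passed the test. 20 of the 47 genes had a mean of at least 0.5 RPKM and were tested (11 MMP, 7 ADAMTS and 2 TIMP), and 0 of these 20 reached an adjusted p of 0.05 in limma, where 0.157% of the 20402 genes tested did (0.147% higher and 0.0098% lower). Their adjusted p-values ran from 0.671 to 1.0, and 2 of them had an unadjusted p under 0.05 (6.99% of all genes tested did). The voom fit on recovered reads gave the same numbers, 0 adjusted (0.309% of all genes) and 2 unadjusted (6.68%). The log2 fold changes lay between -0.26 and 0.40, 11 positive and 9 negative (51.1% of all genes tested were positive), with a median of 0.00063, and the median of all genes tested was 0.0034. In no member, tested or not, were the DMSO and GW3965 libraries fully apart, as they were in 1.84% of all genes tested. The width of the intervals says what these libraries could show. The 95% interval of the log2 fold change stayed within 1 on either side of zero for 18 of the 20 and within 0.5 for 12. Where an interval reached further, as for MMP1 and MMP10, a change of that size could not be told from none at this spread.

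**Figure D1:**
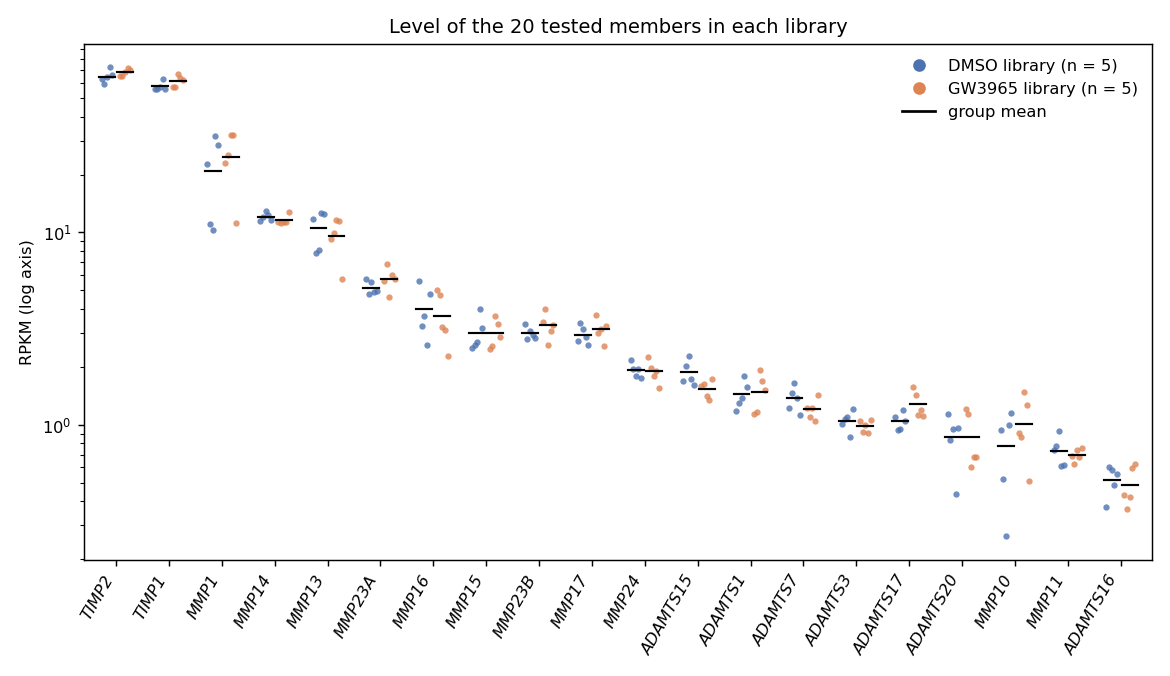
RPKM (log axis) of the 20 tested MMP, ADAMTS and TIMP genes, ordered by their mean in DMSO, with 1 point per library (n = 5 per group) and a bar at the group mean. TIMP2 and TIMP1 lie highest, MMP1 and MMP13 spread widely within both groups, and the colours overlap for every gene.

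The inhibitors were the most abundant members. TIMP2, which inhibits MMPs and also takes part in the activation of the MMP2 zymogen by MMP14, measured 62.6, 58.9, 63.9, 72.1 and 65.8 RPKM in the DMSO libraries 1 to 5 and 65.3, 64.9, 68.4, 71.5 and 70.2 RPKM in the GW3965 libraries 1 to 5. All 5 treated libraries fell inside the DMSO range. The fold was 1.05 with a 95% interval of 0.96 to 1.16 (log2 fold change 0.08, SE 0.06, limma adjusted p = 0.88). TIMP1, a secreted inhibitor of most MMPs, measured 55.4, 55.9, 56.97, 62.9 and 56.0 RPKM in DMSO and 56.9, 57.2, 66.6, 63.5 and 62.3 RPKM in GW3965. GW3965 libraries 3 and 4 were above every DMSO library and the other 3 were within the DMSO range. Its fold was 1.07, with an interval of 0.97 to 1.17 and a limma adjusted p of 0.84. The ratio of TIMP2 to TIMP1 was 1.12 ± 0.045 in DMSO and 1.11 ± 0.049 in GW3965 (SD, n = 5 each).

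The other inhibitors were near the floor. TIMP3, the matrix-bound inhibitor that also acts on ADAMTS proteases, had 0 reads in all DMSO libraries, 3 reads in GW3965 library 1 and 1 in library 2. A library with 0 reads allows up to 3, so no fold was drawn. TIMP4 had 10 reads over the 5 DMSO libraries and 6 over the 5 GW3965 libraries. Summed per length, the 4 inhibitors gave 122 ± 7.73 RPKM in DMSO and 129 ± 6.69 RPKM in GW3965. They made up 62.0 ± 3.20% and 62.5 ± 3.60% of the RPKM of all 47 genes.

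MMP1, the interstitial collagenase, was the most abundant protease of the set and also the most variable for its level. It measured 22.8, 11.1, 10.3, 31.6 and 28.6 RPKM in DMSO and 23.0, 25.1, 32.1, 32.1 and 11.2 RPKM in GW3965. DMSO 2, DMSO 3 and GW3965 5 were low, at less than all the others by a wide gap, and low and high libraries were found on both sides. Group means were 20.9 ± 9.83 and 24.7 ± 8.57 RPKM, for a fold of 1.23 with an interval of 0.69 to 2.18 (limma adjusted p = 0.94). The log2 fold change of 0.30 became 0.56 without GW3965 library 5, 0.11 without DMSO library 2 and 0.08 without DMSO library 3. The MMP1 counts ranged from 856 to 3328 reads, for which counting alone gives a coefficient of variation of 2.11%, while the libraries gave 47.1% in DMSO and 34.7% in GW3965. The SD of its log2 level within groups exceeded that of 99.9% of the 2868 genes of similar level.

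MMP13, the collagenase known from cartilage and bone, had the same low libraries. It measured 11.8, 7.85, 8.08, 12.6 and 12.5 RPKM in DMSO and 9.21, 9.93, 11.6, 11.5 and 5.74 RPKM in GW3965. The lowest 3 of the 10 were again GW3965 5, DMSO 2 and DMSO 3. Its fold was 0.90 with an interval of 0.66 to 1.24 (log2 fold change -0.15, SE 0.21, limma adjusted p = 0.95). Leaving out GW3965 library 5 turned the log2 fold change to 0.02. The SD of MMP13 was above that of 97.4% of 5443 genes of similar level.

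MMP10, the stromelysin whose start region is shown, measured 0.939, 0.523, 0.263, 1.00 and 1.16 RPKM in DMSO and 0.903, 0.868, 1.49, 1.27 and 0.509 RPKM in GW3965. These values rest on 14 to 99 reads a library, and the lowest 3 libraries were once more DMSO 3, GW3965 5 and DMSO 2. The highest library exceeded the lowest 5.65 times, the widest range of the 20 genes. MMP10 had the highest log2 fold change of the tested members, 0.40 with an SE of 0.36 (limma adjusted p = 0.91). It was 0.59 without GW3965 library 5 and 0.11 without DMSO library 3.

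MMP3, stromelysin 1, stayed under the filter with 75 reads in DMSO and 81 in GW3965. Its libraries held 17, 10, 4, 25 and 19 reads in DMSO and 5, 19, 23, 22 and 12 in GW3965. DMSO 3 was the lowest here too, but GW3965 1 came second, which was not low for MMP1, MMP10 or MMP13. MMP11, the stromelysin that is cleaved inside the cell by furin, was steady at 0.732 ± 0.130 and 0.697 ± 0.0539 RPKM (SD, n = 5 each). Its exons overlap those of CHCHD10 on the opposite strand, a gene at 22.97 RPKM in DMSO, so that its reads may not all be its own.

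MMP1, MMP3, MMP10 and MMP13 share a place in the genome. In the GENCODE 29 annotation (GRCh38), 9 members lay on the minus strand of chromosome 11 between 102520508 and 102955734, in the order MMP7, MMP20, MMP27, MMP8, MMP10, MMP1, MMP3, MMP12 and MMP13. MMP1 spans 102789920 to 102798160, and MMP13 spans 102942995 to 102955734. MMP1, MMP10 and MMP13 passed the filter and the other 6 did not. MMP12, the macrophage elastase, had 6 and 12 reads, MMP7, matrilysin, had 4 and 3, MMP8, the neutrophil collagenase, had 1 and 0, MMP20, the enamel protease, had 0 and 1, and MMP27 had 0 reads in all 10 libraries. WTAPP1, a transcribed pseudogene on the opposite strand that overlaps exons of MMP1 and MMP3, was at most 0.213 RPKM.

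**Figure D2:**
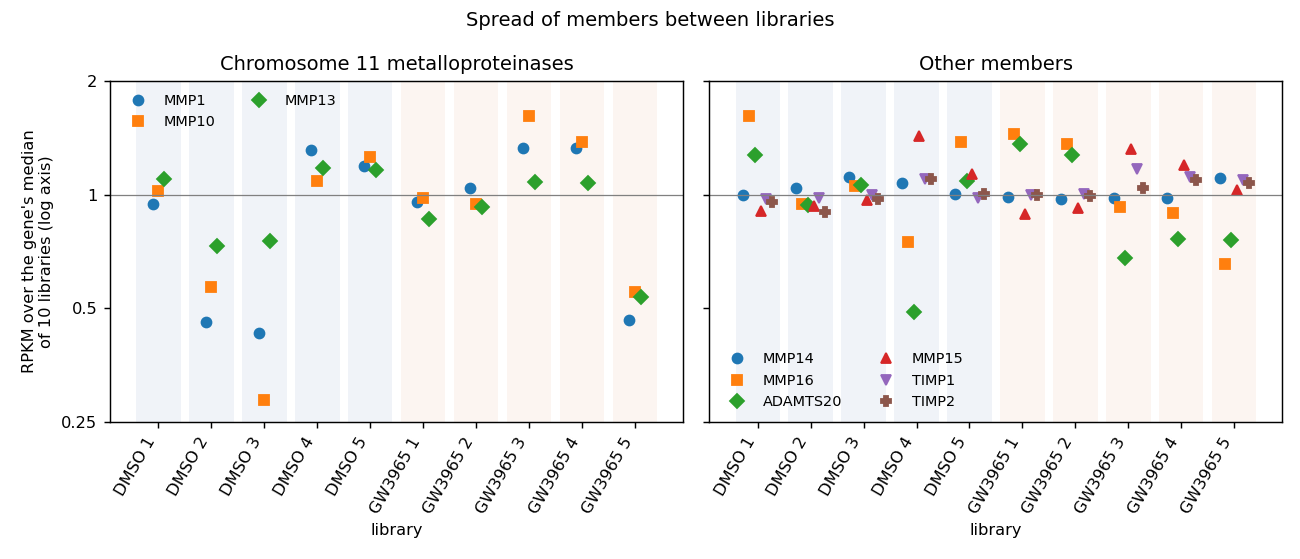
RPKM divided by the gene's median over the 10 libraries (log axis), for each library, with MMP1, MMP10 and MMP13 on the left and other members on the right. Bands are blue for DMSO and orange for GW3965. DMSO 2, DMSO 3 and GW3965 5 lie lowest for all 3 genes on the left, and MMP14, TIMP1 and TIMP2 stay near 1 throughout.

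Other genes had DMSO 2, DMSO 3 and GW3965 5 as their lowest or highest 3 libraries, and this was counted after the values of MMP1 had been seen. Of all 20402 genes tested, 414 (2.03%) had these libraries lowest and 470 (2.30%) had them highest, so genes lay apart in both directions. Among the 20 members, MMP1, MMP10 and MMP13 had them lowest, and ADAMTS7 and MMP11 had them highest. Of the 36 tested genes on the lists of related genes, HSPG2, perlecan, had them lowest, and ADAM19, PLAU, TFPI2 and TNC had them highest. PLAU, urokinase, was 76.0, 81.1 and 85.6 RPKM there and 41.5 to 68.1 RPKM elsewhere. Of the 5 fibroblast markers, 2 were tested. COL3A1 was also low, at 1.97, 2.18 and 1.85 RPKM against 3.05 to 4.77 RPKM, and its part in the result was not tested. COL1A1 was not low, at 1.04, 1.08 and 0.884 RPKM in these libraries and 0.696 to 1.01 RPKM elsewhere. SPARC, FN1 and LOX, named after their values were seen, were low there too. SPARC, a collagen-binding glycoprotein, was 21.9, 25.2 and 21.4 RPKM in DMSO 2, DMSO 3 and GW3965 5 and 43.7 to 61.9 RPKM elsewhere. FN1, fibronectin, was 8.96, 9.22 and 9.19 RPKM there and 10.8 to 13.4 RPKM elsewhere. LOX, which crosslinks collagen, was 1.98, 2.05 and 1.51 RPKM there and 2.48 to 4.48 RPKM elsewhere. The 3 libraries hold 39384176, 30610215 and 31895861 reads, and their 7SL shares were 13.7%, 20.4% and 15.2%. The part of depth and of 7SL in this shared order was not tested.

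Among the membrane-type enzymes, MMP14 stood at the steady end. This enzyme, anchored at the cell surface and the activator of the MMP2 zymogen, measured 11.5, 12.0, 12.9, 12.3 and 11.6 RPKM in DMSO and 11.3, 11.2, 11.3, 11.3 and 12.7 RPKM in GW3965. GW3965 1 to 4 lay below all DMSO libraries, and GW3965 5 lay within them. The highest library exceeded the lowest by a factor of 1.15, the smallest of the tested members, and only 8.72% of 4874 genes of similar level had a smaller SD. Its fold was 0.96 with an interval of 0.88 to 1.05 (limma adjusted p = 0.91). MMP14 had between 1733 and 2360 reads in every library.

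MMP16, also membrane-anchored, measured 5.61, 3.28, 3.67, 2.60 and 4.79 RPKM in DMSO and 5.02, 4.72, 3.23, 3.10 and 2.28 RPKM in GW3965. The libraries DMSO 1, GW3965 1 and DMSO 5 were highest and GW3965 5 lowest. Its log2 fold change was -0.12 with an SE of 0.24 (limma adjusted p = 0.97). MMP15, another membrane-type enzyme, ranged from 2.52 to 3.999 RPKM in DMSO and from 2.48 to 3.68 RPKM in GW3965, with a fold of 1.00 and an interval of 0.80 to 1.25. For MMP15 the order was nearly turned around, with GW3965 1, DMSO 1 and GW3965 2 lowest and DMSO 4 highest. MMP17 and MMP24, at 2.93 ± 0.316 and 1.92 ± 0.161 RPKM in DMSO, had folds of 1.07 (interval 0.91 to 1.25) and 0.98 (interval 0.84 to 1.14). MMP24 exons overlap those of MMP24OS on the opposite strand, which was higher at 5.78 RPKM in DMSO, and the reads of such a pair may not be told apart.

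MMP23A and MMP23B have to be read as a pair. MMP23A is annotated as an unprocessed pseudogene, on chromosome 1 like MMP23B, and 100% of its 50-base windows also occur in MMP23B, against 38.02% of those of MMP23B in MMP23A. Their reads can therefore be split between the copies by the counting. MMP23B also overlaps CDK11B on the opposite strand, at 14.4 RPKM in DMSO. MMP23A was 5.17 ± 0.421 RPKM in DMSO and 5.75 ± 0.824 RPKM in GW3965, and MMP23B was 2.997 ± 0.224 and 3.29 ± 0.521 RPKM. Neither passed the test (limma adjusted p = 0.853 and 0.905). The ratio of MMP23A to MMP23B was 1.73 ± 0.054 in DMSO and 1.76 ± 0.118 in GW3965 (SD, n = 5 each).

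The gelatinases, often measured for invasion, were scarce. MMP2 had 1 read in the 5 DMSO libraries and 0 in the 5 GW3965 libraries. MMP9 had 36, 25, 8, 14 and 24 reads in DMSO and 20, 24, 20, 13 and 22 in GW3965, for 0.113 to 0.446 and 0.157 to 0.291 RPKM. Treated libraries all lay within the DMSO range. At these counts a modest change of either gelatinase was not detectable.

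**Figure D3:**
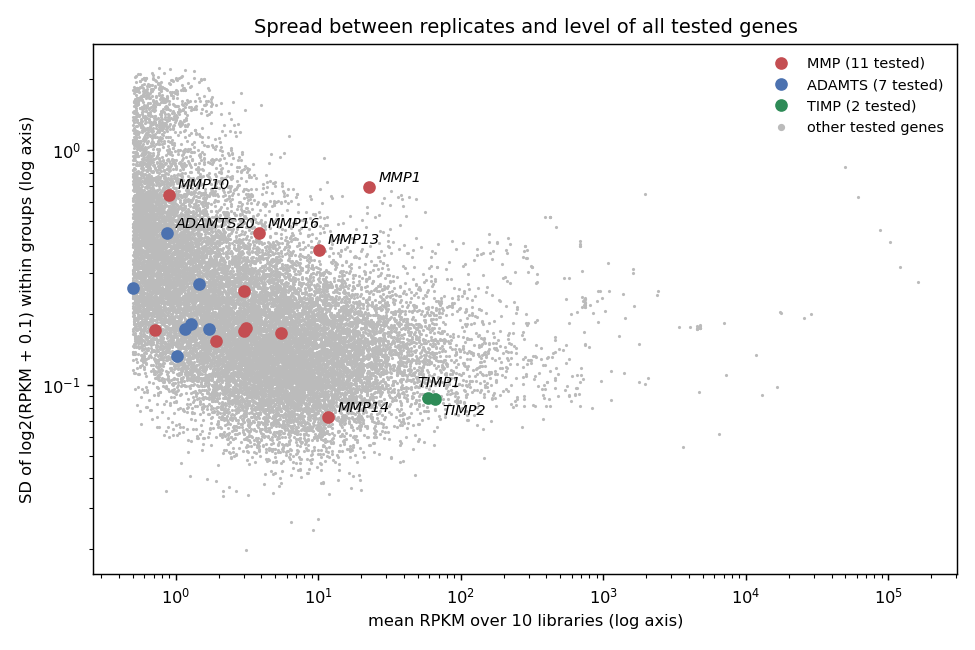
Mean RPKM over 10 libraries (log axis) against the SD of log2(RPKM + 0.1) within groups (log axis) for the 20402 tested genes in grey, with the 20 members coloured by family. MMP1 lies at the upper edge of the genes of its level, with a larger SD than 99.9% of them, and MMP14 lies near the lower edge, with only 8.72% below it.

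The ADAMTS genes were lower in level and steadier as a sum, at 9.11 ± 0.447 RPKM in DMSO and 8.77 ± 0.373 RPKM in GW3965 for all 19, against 66.2 ± 12.6 and 69.4 ± 10.96 RPKM for the 24 MMP genes. MMP1 and MMP13 together took from 33.3% to 56.6% of the MMP sum, depending on the library. The 7 tested ADAMTS genes had 3 positive and 4 negative log2 fold changes. Both members with an unadjusted p under 0.05 were among them.

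ADAMTS15, a protease of aggrecan and versican, had the lowest log2 fold change. It measured 1.69, 2.03, 2.28, 1.74 and 1.61 RPKM in DMSO and 1.59, 1.63, 1.41, 1.34 and 1.72 RPKM in GW3965. GW3965 1, 3 and 4 were below all DMSO libraries, and GW3965 2 and 5 were within them. The fold was 0.835 with an interval of 0.705 to 0.988 (log2 fold change -0.26, SE 0.11, unadjusted p = 0.0376, limma adjusted p = 0.671). The gene lies on the plus strand of chromosome 11 from 130448974 to 130476641, away from the MMP cluster.

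ADAMTS17, which is tied to fibrillin microfibrils, went the other way. It measured 1.09, 0.942, 0.949, 1.199 and 1.04 RPKM in DMSO and 1.57, 1.43, 1.13, 1.195 and 1.11 RPKM in GW3965. GW3965 1 and 2 were above all DMSO libraries and the other 3 lay between DMSO 1 and DMSO 4. The fold was 1.21 with an interval of 1.00 to 1.45 (log2 fold change 0.27, SE 0.12, unadjusted p = 0.0466, limma adjusted p = 0.711).

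**Figure D4:**
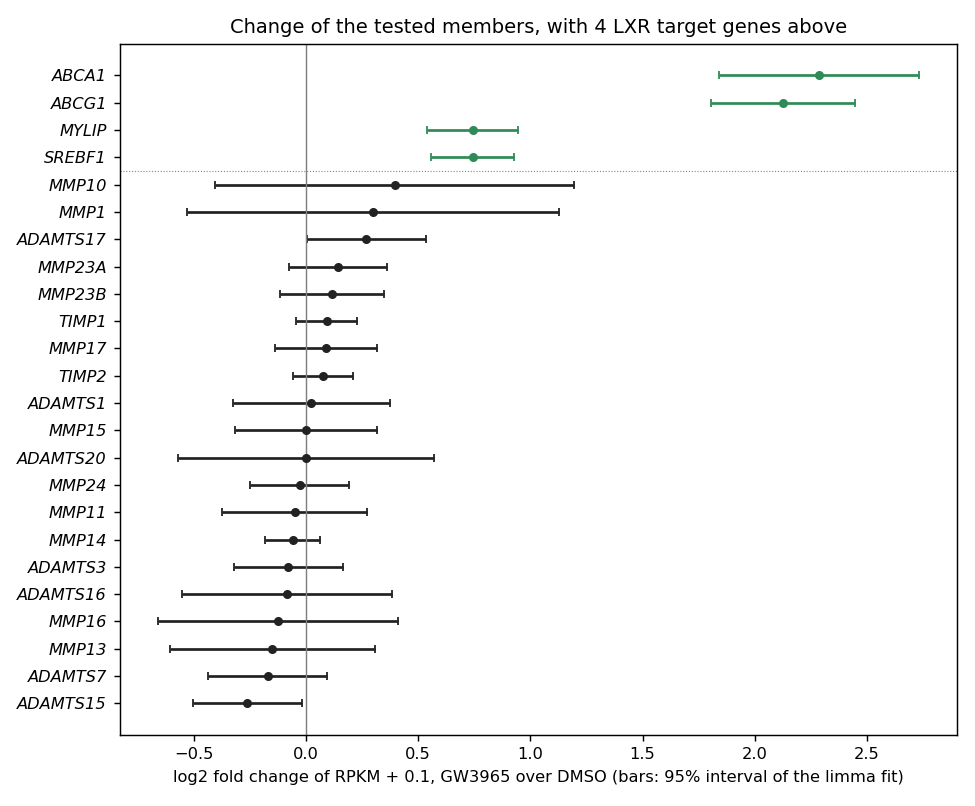
Log2 fold change of RPKM + 0.1, GW3965 over DMSO, for 4 LXR target genes (green) and the 20 tested members (black), with bars for the 95% interval of the limma fit. The target genes lie right of 0, from 0.74 for SREBF1 and MYLIP to 2.29 for ABCA1, while the member intervals include 0 except those of ADAMTS17 and ADAMTS15, which end next to it.

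The remaining ADAMTS genes did not approach the threshold. ADAMTS1, an aggrecan and versican protease, had a fold of 1.02 with an interval of 0.80 to 1.30, and its lowest 3 libraries were GW3965 1, GW3965 2 and DMSO 1, as for MMP15. ADAMTS20, a protease known from pigment cell migration, measured 1.14, 0.838, 0.947, 0.436 and 0.967 RPKM in DMSO and 1.21, 1.14, 0.605, 0.681 and 0.678 RPKM in GW3965. There GW3965 1, DMSO 1 and GW3965 2 were the highest 3. ADAMTS7, which cleaves cartilage oligomeric matrix protein, had a fold of 0.89 (interval 0.74 to 1.07), and 14.8% of its 50-base windows also occur in its pseudogenes. ADAMTS3, a procollagen N-propeptidase, and ADAMTS16 had folds of 0.95 (interval 0.80 to 1.12) and 0.94 (interval 0.68 to 1.30).

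In the order of levels in DMSO, the step between neighbours exceeded the SD ranges at 3 of 19 places, from TIMP1 to MMP1, from MMP13 to MMP23A and from MMP17 to MMP24. The other 16 neighbouring pairs had overlapping ranges of mean ± SD, and these ranges alone did not settle their order. MMP14 and MMP13, at 12.1 ± 0.572 and 10.6 ± 2.39 RPKM, are such a pair. TIMP2 and TIMP1 are another, but compared within each DMSO library TIMP2 was always the higher, with a ratio of 1.05 to 1.18.

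The 27 genes under 0.5 RPKM comprised 13 MMP, 12 ADAMTS and 2 TIMP genes. Of these, 7 had at most 3 reads in every library. The highest were ADAMTS13, the protease of von Willebrand factor, with 434 reads in DMSO and 444 in GW3965, and ADAMTS6 with 281 and 269. The aggrecanases ADAMTS4 and ADAMTS5 had 100 and 89 reads and 25 and 28 reads. In a fit without the filter, their lowest adjusted p was 0.913, where 0.0442% of the genes were called, and 1 of them, MMP21, had an unadjusted p under 0.05, as did 5.39% of the 47537 genes in that fit. MMP21, known from left-right patterning of the embryo, had 28, 38, 25, 26 and 30 reads in DMSO and 32, 25, 13, 13 and 9 in GW3965, with GW3965 3, 4 and 5 below all other libraries and the groups overlapping.

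**Figure D5:**
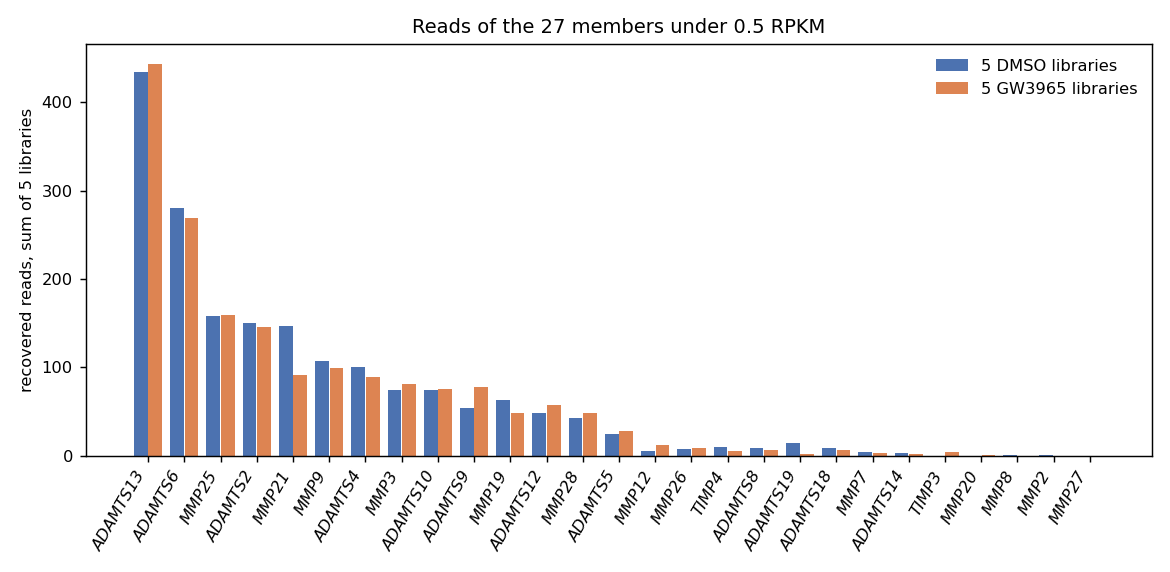
Recovered reads summed over the 5 DMSO (blue) and the 5 GW3965 (orange) libraries for the 27 members with a mean under 0.5 RPKM. Heights run from 434 and 444 reads for ADAMTS13 to 0 for MMP27, and the bars of a gene are mostly of like height, with MMP21 at 147 and 92.

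Genes that act with these enzymes were counted on lists of their own. Across 5 lists with 67 genes, 36 were tested and 0 passed the threshold in limma, 6 (16.7%, against 6.99% of all genes tested) had an unadjusted p under 0.05, and 23 (63.9%, against 51.1%) were positive. Their median log2 fold change was 0.01, beside 0.0034 for all genes tested. Of the inhibitors, binding partners and clearance receptors, 10 were tested and 7 were positive. THBS1, thrombospondin 1, which binds MMPs and TGF-beta, had the highest log2 fold change on that list, from 5.76 ± 0.321 RPKM in DMSO to 7.21 ± 0.478 RPKM in GW3965. Its groups did not overlap (as in 1.84% of all genes tested), with a log2 fold change of 0.32, an SE of 0.06 and a limma adjusted p of 0.12, and with library weights in the fit it passed at 0.043. RECK, a membrane-anchored MMP inhibitor, had the lowest log2 fold change at -0.17 (SE 0.10, adjusted p = 0.816).

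Of the other matrix proteases, 12 were tested and 10 (83.3%) had a positive log2 fold change, against 51.1% of all genes tested. The median of the list was 0.048, and the positive values include those of ADAM8 (0.0030), TLL1 (0.0018) and CTSK (0.0054). In limma, 4 of the 12 (33.3%, against 6.99% of all genes tested) had an unadjusted p under 0.05, and 0 passed the threshold. They were ADAM9, CTSL (log2 fold change 0.21), CTSD (0.14) and, on the negative side, ADAM19. CTSL and CTSD were named after their values were seen. ADAM9, a cell-surface sheddase, had the highest log2 fold change, 0.29 with an SE of 0.09 (limma adjusted p = 0.446). Its levels were 10.4 ± 1.28 RPKM in DMSO and 12.7 ± 0.919 RPKM in GW3965, and its groups did not overlap (as in 1.84% of all genes tested). Without DMSO library 4 its log2 fold change was 0.20. ADAM19 had the lowest log2 fold change, -0.35 with an SE of 0.14 (limma adjusted p = 0.61), at levels of 22.3 ± 4.20 and 17.4 ± 2.83 RPKM. Of the 5 tested convertases and zymogen activators, 1 was positive, and the log2 fold changes ran from -0.14 for PLAUR, the urokinase receptor, to 0.00 for PLAU, urokinase itself. The ADAMTS-like proteins had 3 of 4 positive log2 fold changes, from -0.09 for ADAMTSL4 to 0.15 for ADAMTSL3. The matrix substrates had 2 of 5 positive log2 fold changes, from -0.22 for TNC, tenascin C, to 0.09 for AGRN, agrin.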

How the data were processed

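RNA of 10 PC3 libraries (5 DMSO, 5 GW3965) was prepared by the study with a stranded, ribosome-depleted total RNA kit, although the labels name the molecule polyA RNA, and read as single 50-base reads. The submitters' processing notes list bcl2fastq 2.20.0.422, cutadapt, HISAT2 2.1.0, HTSeq 0.11.2, DESeq2 1.22.2 and hg38, whereas the study's methods name a mouse genome. The gene IDs of the table are human. The strand setting of the counting is not given in the sources used here, so reads of genes that overlap on opposite strands may not be told apart. The deposited values are RPKM per gene, made by the authors from read counts. The steps of these values gave whole reads for 100% of the values above 0 (tolerance 0.001), except in 4 genes with too many reads for the search, and the library scaling matched median-of-ratios size factors.

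Genes averaging 0.5 RPKM or more over the 10 libraries (20402) entered as log2(RPKM + 0.1) into limma 3.58.1 under R 4.3.3 (lmFit and trended eBayes, two-sided), without a block, and adjusted by Benjamini-Hochberg over all of them with a threshold of 0.05. Fold changes are on the log2(RPKM + 0.1) scale, which understates those of low genes. A single value was tested by an exact permutation of the 252 labellings. The SD within groups was set beside genes of similar mean level. Counting errors cover counting alone, since PCR copies were not marked. Overlaps, gene types and 50-base windows came from GENCODE 29 on GRCh38, promoters from RefSeq. All members could be named. Those over the filter were described, of the others those with the most reads or best known, and of each accessory list the highest and lowest log2 fold change. Members and lists were chosen with earlier results of these data known. The fit was also run on simulated reads with the same spread set for every gene, smaller than that of MMP1, so it cannot speak for such variable members. Alternatives covered pseudocounts, filters, scaling, fit options, voom on the recovered reads, the 7SL share, a replicate block and leaving out each library.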

Additional observations from a re-analysis of the deposited data

Results flagged for a closer look

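In each group of 5, the gap between the highest or lowest library and its nearest neighbour was compared with the whole range, with a limit of 0.71. Of the 40 groups (20 members, both treatments), 2 exceeded it, and chance gives about 2. TIMP1 in DMSO stood out through DMSO library 4 (62.9 RPKM), whose gap made up 0.781 of the range. MMP14 in GW3965 stood out through GW3965 library 5 (12.7 RPKM, the others 11.2 to 11.3), with a gap of 0.918 of the range. DMSO library 4 was also the highest DMSO library for TIMP2, MMP1, MMP13 and MMP15, and GW3965 library 5 was the lowest of all libraries for MMP13 and MMP16.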

How the results depend on the processing

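The number of members called was 0 under all 21 other settings, with a lowest adjusted p of 0.334 (limma), for ADAMTS15. The 32 calls over all genes became 21 without a filter, 20 without a trend, 56 with library weights, 63 with voom, 21 with the 7SL covariate, and 17 to 38 when 1 library was left out (GW3965 2 or GW3965 4 out gave 17, DMSO 3 gave 18, GW3965 3 gave 19 and GW3965 5 gave 21). The cause was not tested, except that the filter and the left-out libraries change the genes or samples entered. Of the accessory genes, 0 were called in the reported fit and 1 with library weights, THBS1.

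Same-numbered libraries did not deviate together (correlations from -0.14 to 0.16), so numbers were not treated as pairs. With a replicate block, 16 genes and 0 members were called, and not every library correlated best with its own number. SREBF1 and MYLIP kept a log2 fold change of 0.74 under the block with adjusted p = 0.0643 and 0.0724.

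Of 410 member values, 388 kept their direction and their side of the threshold and 22 changed sign, all in members with no call, and 13 of the 20 members had none. MMP15 became -0.016 under quantile normalization. ADAMTS20 became -0.0026 with a pseudocount of 1, -0.20 with library weights and -0.078 with the 7SL covariate, and PLAU became -0.042 under quantile normalization. With 1 library left out, log2 fold changes ran from -0.25 to 0.024 for MMP13, -0.26 to 0.028 for MMP16, -0.076 to 0.11 for MMP15, -0.089 to 0.038 for MMP24, -0.070 to 0.11 for ADAMTS1, -0.20 to 0.10 for ADAMTS20, -0.11 to 0.028 for MMP11 and -0.14 to 0.10 for PLAU. The 120 levels moved by less than 1 SD. Few reads limit some of the 27 genes under the filter, 7 of which had at most 3 in every library. The filter is by RPKM, and ADAMTS13 under it had 62 to 130 reads a library. The spread between libraries limits MMP1 and MMP10.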
